A study of Mus musculus with 6 samples.

Results

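The results describe 9 genes of neural cell adhesion molecules of the immunoglobulin superfamily, taken by symbol from the 17006 genes of each deposited table. They are the L1 family (Chl1, L1cam, Nrcam and Nfasc), the neural cell adhesion molecules Ncam1 and Ncam2, the contactins Cntn1 and Cntn2, and Alcam. RNA was sequenced from neural stem cells of C57BL/6 mice, isolated from the subventricular zone, the germinal layer beside the lateral ventricles of the brain, and kept in proliferation medium. The donors were young (2 months) or aged (15 to 18 months), neither group carried an allele or received an agent that the labels name, and there were 3 libraries per age. Tissue pieces of 5 mice were pooled for dissociation, so a library stands for a pool of animals and for cultured cells, not for the tissue. The labels do not say that the 3 libraries of an age came from separate cultures, so p-values measure the spread between these libraries, which may be technical. In such bulk samples, fewer cells of a type and less RNA per cell cannot be told apart.

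The members were chosen by family, and the family was selected on the lower FPKM of Chl1 in aged than in young libraries. The group was thus put together with a result known from the same comparison that is given here. The values of Chl1 and the calls among the members are therefore a description and lend no support to one another.

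Immunoglobulin adhesion molecules hold cells to one another and to the matrix through strings of immunoglobulin and fibronectin-type domains outside the cell. L1 family proteins span the membrane and bind ankyrin, and through it the spectrin skeleton, with a short motif in the cytoplasmic tail. Contactins have no tail of their own, are held by a lipid anchor and signal together with other membrane proteins. In the adult subventricular zone, NCAM carrying polysialic acid is best known from the neuroblasts that migrate to the olfactory bulb.

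The ankyrin-binding motif is a place where Chl1 differs from its relatives in the family, so its coding bases are shown here. They were read from GENCODE M21 transcripts of build GRCm38 (mm10), for each gene the longest coding transcript that holds the motif and has a RefSeq match. Each line runs 5′ to 3′ on the coding strand, with the 15 bases of the motif in capitals and 24 bases on each side.
Chl1: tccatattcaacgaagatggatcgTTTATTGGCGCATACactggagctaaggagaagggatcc
Nrcam: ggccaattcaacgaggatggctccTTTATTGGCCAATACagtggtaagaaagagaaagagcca
Nfasc: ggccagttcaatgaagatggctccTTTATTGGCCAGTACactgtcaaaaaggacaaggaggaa
L1cam: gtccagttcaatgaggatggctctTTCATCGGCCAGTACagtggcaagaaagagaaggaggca
The Chl1 stretch is chr6:103729225-103729287 on the plus strand, in exon 27 of 27. That of Nrcam is chr12:44598462-44598524 on the plus strand, in exon 31 of 31. The Nfasc stretch is chr1:132570483-132570545 on the minus strand (exon 30 of 30), and that of L1cam is chrX:73855098-73855160, also on the minus strand (exon 29 of 29). All 4 stretches lie in coding sequence. Counted from 1 at the first capital, Chl1 differs from Nrcam by C10G and A11C, where the first letter is the base of Nrcam. Chl1 differs from Nfasc by C10G, A11C and G12A, and from L1cam by C3T, C6T, C10G, A11C and G12A, with the first letter from Nfasc or L1cam. Nrcam and Nfasc differ from each other at 1 of the 15 positions (A12G, the base of Nrcam first). The fourth codon, positions 10 to 12, is thus where Chl1 stands apart from the other family genes at 2 positions that they share.

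The libraries held about 5229000 to 5389000 counted reads, as estimated from the steps in low values. If values were scaled between libraries, these are scaled sizes. Across genes, libraries of the same age correlated at 0.988 to 0.990 (log2 values) and those of different ages at 0.986 to 0.988. Stem and progenitor markers were high, with Sox2 at 165.0 to 185.6 FPKM, Nes at 255.8 to 275.2 FPKM and Fabp7 at 2662 to 2878 FPKM over the 6 libraries, and the label was not contradicted. FPKM are fragments per kilobase of transcript, scaled for library size in a way that the sources used here do not give. Of 11912 genes whose mean reached 1 FPKM, 86 passed limma (Benjamini-Hochberg adjusted p under 0.05), 39 higher and 47 lower in aged libraries.

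Of the 9 genes, Ncam1 was the most abundant and L1cam and Cntn2 were close to absent. Ncam1 alone made up 58.1% to 60.8% of the summed FPKM of all 9 in each library. By mean over the 6 libraries, the order was Ncam1, Nrcam, Cntn1, Alcam, Chl1, Ncam2, Nfasc, L1cam and Cntn2. Ncam1 stood above Nrcam, Cntn1 above Alcam, and Nfasc above L1cam in every pair of libraries. The ranges of the other neighbours (Nrcam and Cntn1, Alcam and Chl1, Chl1 and Ncam2, Ncam2 and Nfasc, L1cam and Cntn2) overlapped over the 6 libraries. By age, Chl1 lay above both Alcam and Ncam2 in all young libraries, whereas the highest aged value of Chl1 (5.30 FPKM) lay below the lowest aged values of Ncam2 (5.50 FPKM) and Alcam (6.56 FPKM). FPKM corrects for transcript length, so these are levels per length and can be set side by side between genes.

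**Figure D1:**
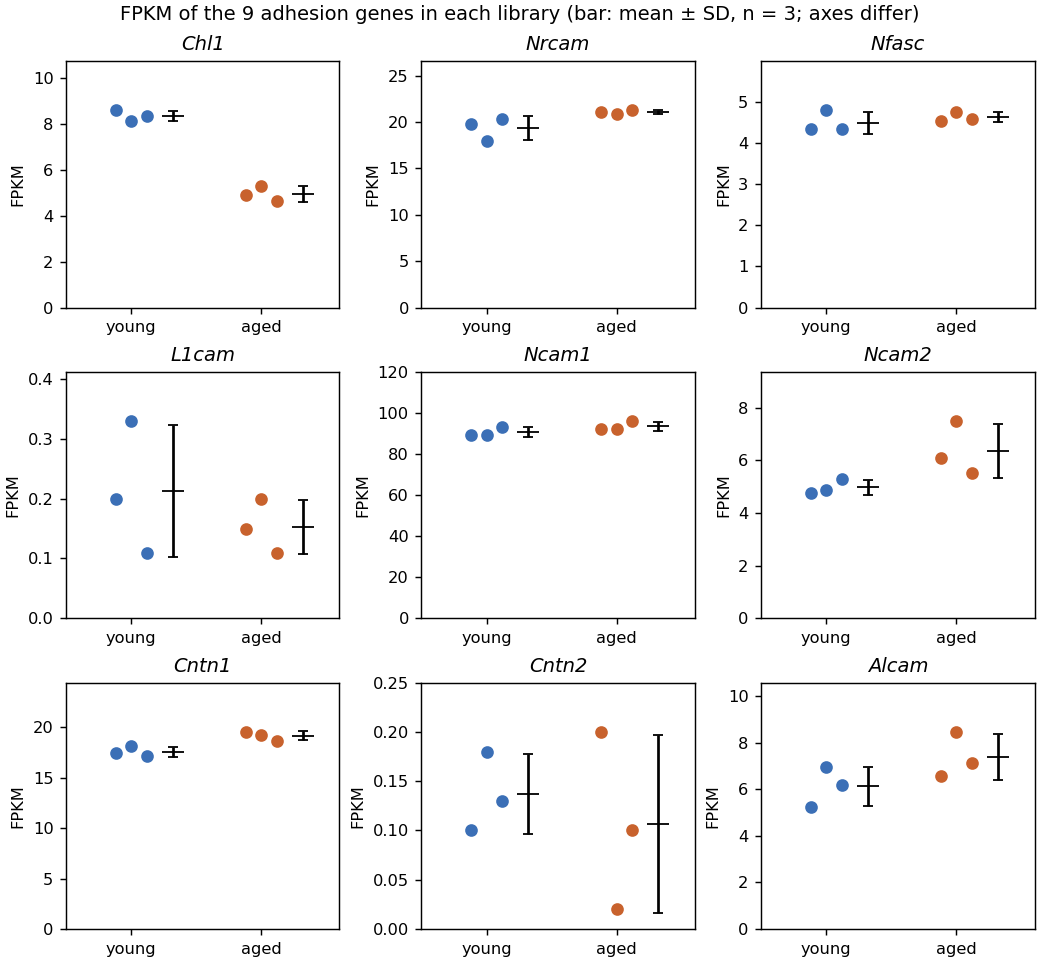
FPKM (y axis, starting at 0, with its own scale for each gene) of the 9 adhesion genes in 3 young and 3 aged libraries (points), with the mean and SD of each age (bars). Chl1 lies at 8.12 to 8.58 FPKM in the young libraries and 4.62 to 5.30 FPKM in the aged ones, whereas L1cam and Cntn2 stay at or under 0.33 FPKM.

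Within the L1 family, the aged mean of Chl1 was 0.592 times the young one, while the aged means of its expressed relatives Nrcam and Nfasc were 1.09 and 1.03 times the young ones. Chl1 (gene 12661, chromosome 6, 103510584 to 103733038) encodes the close homologue of L1, an adhesion molecule of neurons and glial progenitors. It was at 8.58, 8.12 and 8.33 FPKM in the young libraries and at 4.89, 5.30 and 4.62 FPKM in the aged ones. The lowest young library lay well above the highest aged one, and the gap was several times the SD of either age. The mean was 8.34 ± 0.230 FPKM in the young libraries and 4.94 ± 0.342 FPKM in the aged ones (SD, n = 3 each), about 330.2 to 348.9 estimated reads per young library and 184.9 to 209.6 per aged one. The log2 change of FPKM + 1 was -0.66 ± 0.078 (SE), and its adjusted p by limma was 0.0107 over the whole table. Of the 7 members tested 1 was called (Chl1, lower), where 0.722% of all tested genes were called, 0.395% lower and 0.327% higher. The call was lost without young 1 (limma adjusted p = 0.0561, or 0.0486 when the filter was taken over the remaining libraries), and over all 23 alternatives the adjusted p ran from 0.00680 to 0.0643.

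Nrcam (gene 319504, chromosome 12, 44328786 to 44605194) encodes a relative of L1 that binds contactins and clusters sodium channels at nodes of Ranvier. It was at 19.82, 17.94 and 20.38 FPKM in young libraries and at 21.12, 20.86 and 21.26 FPKM in aged ones. The aged libraries were all above the young ones, but the nearest values, 20.38 and 20.86 FPKM, were closer than the SD of the young libraries (1.28). The log2 change was 0.12 ± 0.059 (SE), and its adjusted p by limma was 0.501. Without young 2, the lowest library, the change was 0.066. Nfasc (gene 269116, chromosome 1, 132564690 to 132741848) encodes neurofascin, of which separate isoforms sit on axons and on glia. It was at 4.33, 4.79 and 4.33 FPKM in the young libraries and at 4.54, 4.76 and 4.59 FPKM in the aged ones. These ranges overlapped, and the log2 change was 0.04 ± 0.085 (SE, limma adjusted p = 0.911), or 0.02 to 0.08 with 1 library left out. The deposited value is 1 per gene, so the neuronal and glial isoforms of Nfasc cannot be told apart.

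L1cam (gene 16728, chromosome X, 73853778 to 73880838), the founding member of the family and an axonal growth molecule, was at 0.20, 0.33 and 0.11 FPKM in the young libraries and at 0.15, 0.20 and 0.11 FPKM in the aged ones. That is about 3.0 to 9.1 estimated reads per library, too few to compare the ages, and L1cam was under the filter of a mean of 1 FPKM. The ranges overlapped. The annotation also places exons of Arhgap4 over those of L1cam on the same strand, so the few reads are not certain to belong to L1cam.

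Chl1 held a smaller share of the family's summed FPKM in every aged library than in any young one. Summed over the 4 genes, L1 family transcripts came to 31.2 to 33.15 FPKM in the young libraries and 30.6 to 31.1 FPKM in the aged ones. Chl1 held 26.1%, 26.0% and 25.1% of that sum in the young libraries and 15.9%, 17.0% and 15.1% in the aged ones. Nrcam held 57.5% to 61.5% in the young libraries and 67.0% to 69.5% in the aged ones, and the level of Nrcam was 2.21 to 2.45 times that of Chl1 in young against 3.94 to 4.60 times in aged libraries. The Nfasc share overlapped, at 13.1% to 15.4% and 14.8% to 15.3%. These shares restate the values of Chl1 within a library, where a scaling factor common to all genes cancels out, and they were not tested.

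**Figure D2:**
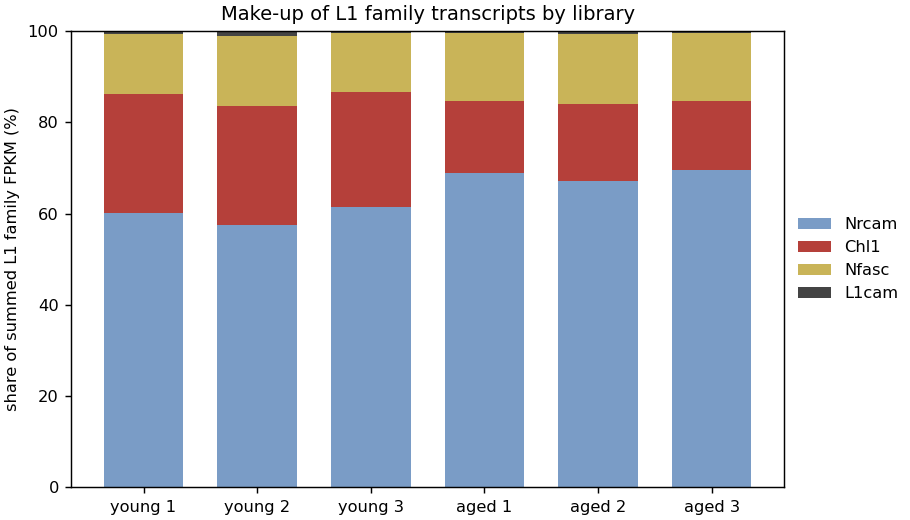
Share of the summed L1 family FPKM (y axis, in percent) held by Nrcam, Chl1, Nfasc and L1cam in each of the 6 libraries (x axis). The Chl1 segment spans 25.1% to 26.1% in the young libraries and 15.1% to 17.0% in the aged ones.

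Neither NCAM gene passed the test. Ncam1 (gene 17967, chromosome 9, 49502129 to 49799393) encodes the neural cell adhesion molecule that bears polysialic acid. It was at 89.20, 89.41 and 93.45 FPKM in the young libraries and at 92.46, 92.11 and 96.14 FPKM in the aged ones. The ages overlapped, and the log2 change was 0.04 ± 0.037 (SE, limma adjusted p = 0.712), or 0.03 to 0.07 with 1 library left out. Exons of Gm11149, an antisense gene, overlap those of Ncam1. Gm11149 was at 14.29 to 16.35 FPKM over the 6 libraries, and the strand setting of the counting is not given in the sources used here, so reads of the pair may be mixed.

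Ncam2 (gene 17968, chromosome 16, 81200697 to 81624290), a paralogue best known from olfactory neurons, was at 4.77, 4.86 and 5.29 FPKM in the young libraries and at 6.08, 7.49 and 5.50 FPKM in the aged ones. All aged libraries lay above the young ones, with aged 2 highest and aged 3 close to young 3. The mean was 4.97 ± 0.278 FPKM in the young libraries and 6.36 ± 1.02 FPKM in the aged ones (SD, n = 3 each), and the log2 change was 0.29 ± 0.11 (SE, limma adjusted p = 0.339). Without aged 2 that change was 0.18, and without aged 3 it was 0.38.

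The contactins split into an expressed gene and one near 0. Cntn1 (gene 12805, chromosome 15, 92051152 to 92341967) encodes contactin 1, a partner of Nrcam and of the receptor phosphatase Ptprz1. It was at 17.46, 18.12 and 17.12 FPKM in the young libraries and at 19.56, 19.27 and 18.67 FPKM in the aged ones. The ages did not overlap, with 18.12 and 18.67 FPKM as the nearest values, and the log2 change was 0.12 ± 0.052 (SE, limma adjusted p = 0.421). Cntn2 (gene 21367, chromosome 1, 132509425 to 132543251), the axonal contactin TAG-1, was at 0.10, 0.18 and 0.13 FPKM in the young libraries and at 0.20, 0.02 and 0.10 FPKM in the aged ones. That is about 0.8 to 7.5 estimated reads per library, under the filter, and no difference between the ages was detectable at this depth.

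Alcam (gene 11658, chromosome 16, 52248996 to 52453081) encodes CD166, which binds itself and the lymphocyte receptor CD6. It was at 5.26, 6.95 and 6.17 FPKM in the young libraries and at 6.56, 8.47 and 7.15 FPKM in the aged ones. The ranges overlapped, since young 2 lay above aged 1. The log2 change was 0.24 ± 0.12 (SE, limma adjusted p = 0.490), with the libraries of an age spread by an SD of 0.846 FPKM (young) and 0.978 FPKM (aged). Without young 1 or without aged 2 that change was 0.15.

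Across the 7 tested members, the 6 other than Chl1 had a log2 change above 0, from 0.04 to 0.29, and 0 of them passed limma. Of all tested genes 51.0% had a change above 0. Of these 6, Cntn1 and Ncam2 had an unadjusted limma p under 0.05 (0.0494 and 0.0277). At that p 6.3% of all tested genes were higher, and 11.9% passed in either direction. Nrcam, Cntn1 and Ncam2 were the 3 whose aged libraries all lay above the young ones, which held for 8.98% of all tested genes. For Chl1 the aged libraries all lay below the young ones, which held for 8.58%. Aged 2 had the highest value among aged libraries for Chl1, Ncam2, Alcam, Nfasc and L1cam, but not for Nrcam, Cntn1, Ncam1 or Cntn2.

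Among genes whose products bind these molecules outside the cell, the matrix gene Tnc and the L1 ligand Cd24a fell. Of 33 listed, 26 were tested, of which 0 passed as higher, 2 passed as lower and 24 did not pass. At an unadjusted p under 0.05, 3 were higher and 5 lower. Of all tested genes 0.722% passed, and 6.3% were higher and 5.55% lower at that unadjusted p. In 3 of the 26 the aged libraries all lay above the young ones and in 7 all below. Of all tested genes 8.98% and 8.58% did. This list and those that follow were chosen with earlier results of these data known, so their counts are a description. Tnc, the matrix protein tenascin C, fell from 305.2 ± 2.50 to 245.9 ± 6.09 FPKM (SD, n = 3 each). Its log2 change was -0.31 ± 0.029 (SE) and its adjusted p by limma 0.00398. Cd24a, a small glycoprotein that binds L1, fell from 80.7 ± 1.87 to 66.0 ± 1.34 FPKM (SD, n = 3 each). Its log2 change was -0.29 ± 0.037 (SE) and its adjusted p by limma 0.0119. The next by adjusted p were Bcan, the proteoglycan brevican, at 228.6 and 253.7 FPKM, and App, the amyloid precursor protein, at 111.6 and 100.4 FPKM, and neither passed (0.0602 and 0.138). With a filter of 5 FPKM Bcan passed as higher in aged libraries (limma adjusted p = 0.0456). The median log2 change of the 26 was -0.02, against 0.003 for all tested genes. Both calls were lost without limma's variance trend (limma adjusted p of Tnc 0.0809 and of Cd24a 0.101). That of Cd24a was also lost without young 1 (0.0649), young 2 (0.0622) or aged 3 (0.0507), and the list then held 1 call.

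Some partners are given for their role and were picked after their values were seen. Ptprz1, the receptor phosphatase that contactin 1 binds, was at 261.6 ± 4.65 FPKM in the young libraries and 256.8 ± 7.85 FPKM in the aged ones (SD, n = 3 each). Ncan, the proteoglycan neurocan and a ligand of L1 and NCAM, was at 250.0 ± 2.13 and 252.9 ± 4.50 FPKM. Fgfr1, a receptor that NCAM and L1 engage, was at 47.9 ± 1.23 and 46.3 ± 1.62 FPKM. All 3 had ranges that overlapped between the ages, and none passed (limma adjusted p from 0.756 to 0.878).

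Of 25 listed partners inside the cell, 21 were tested and 0 passed limma, with a median log2 change of -0.02. At an unadjusted limma p under 0.05, 2 were higher and 5 lower, where 6.3% and 5.55% of all tested genes were. In 2 of the 21 the aged libraries all lay above the young ones and in 5 all below, where 8.98% and 8.58% of all tested genes did. Msn, the membrane-to-actin linker moesin, was at 141.6 ± 0.651 FPKM in the young libraries and 126.4 ± 2.23 FPKM in the aged ones (SD, n = 3 each, limma adjusted p = 0.0601). It passed in 3 alternatives, which were a filter of 5 FPKM, rescaling to TPM and a robust variance prior (lowest limma adjusted p 0.0447). Gap43, a growth cone protein, was at 235.7 and 210.7 FPKM, the spectrin Sptan1 at 163.3 and 152.0 FPKM, and the scaffold Dlg1 at 14.0 and 12.2 FPKM. These 4 are among the 5 that lay below. Of the ankyrins, named after their values were seen, Ank2 was at 95.4 and 96.3 FPKM and Ank3 at 7.83 and 6.81 FPKM, with overlap in both (limma adjusted p 0.923 and 0.456). Ank1, under the filter and not tested, had means of 0.673 and 1.08 FPKM, with all aged libraries above the young ones.

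Among 16 enzymes that cut these proteins at the surface or build their glycans, 13 were tested and 0 passed limma. At an unadjusted limma p under 0.05, 0 were higher and 3 lower, where 6.3% and 5.55% of all tested genes were. The median log2 change of the 13 was -0.04. In 1 of them the aged libraries all lay above the young ones and in 4 all below, again beside 8.98% and 8.58% of all tested genes. Chst10, which adds the sulfate of the HNK-1 glycan, was at 10.8 and 8.87 FPKM, and B3gat2, which adds its glucuronic acid, at 13.2 and 14.5 FPKM. The sheddase Adam10 was at 42.8 ± 0.475 FPKM in the young libraries and 39.9 ± 0.259 FPKM in the aged ones (SD, n = 3 each), and the protease Bace2 at 2.23 and 1.47 FPKM. None of these 4 overlapped between the ages, and their limma adjusted p ran from 0.266 to 0.497. B3gat1, listed beside B3gat2 and named after its values were seen, went the other way. It was at 45.1 and 43.5 FPKM, with all aged libraries below the young ones (limma adjusted p = 0.683). The polysialyltransferases, named after their values were seen, were under the filter. St8sia2 was at 0.57, 0.40 and 0.67 FPKM in the young libraries and at 0.21, 0.21 and 0.34 FPKM in the aged ones. St8sia4 was at 0.60, 0.93 and 0.93 FPKM in the young libraries and at 0.54, 1.49 and 0.57 FPKM in the aged ones. The aged libraries were all lower for St8sia2, whereas aged 2 was the highest of all for St8sia4.

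None of the other immunoglobulin adhesion molecules passed the test. Of 54 listed, 42 were tested and 0 passed limma, with 9 higher and 3 lower at an unadjusted p under 0.05, where 6.3% and 5.55% of all tested genes were. The median log2 change was 0.06, against 0.003 for all tested genes, and 27 of the 42 were above 0, as were 51.0% of all tested genes. In 11 of them the aged libraries all lay above the young ones and in 4 all below, where 8.98% and 8.58% of all tested genes did. Dscaml1, a relative of the Down syndrome cell adhesion molecule, was at 0.99, 0.97 and 1.05 FPKM in the young libraries and at 2.06, 2.02 and 2.26 FPKM in the aged ones. The 3 aged values were close to one another and far from the young ones, and the log2 change was 0.64 ± 0.12 (SE, limma adjusted p = 0.0660). Dscaml1 passed without limma's variance trend (limma adjusted p = 0.0201) and with a robust variance prior (0.0481). Bsg, the lactate carrier chaperone basigin, was at 216.5 and 247.7 FPKM. Hepacam, an astrocyte adhesion molecule, was at 115.9 and 126.7 FPKM, and Cdon, a co-receptor of hedgehog signals, at 16.4 and 13.1 FPKM (limma adjusted p of the 3 from 0.0764 to 0.147).

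The lipid-anchored IgLON molecules within that list, named after their values were seen, are Lsamp, Negr1, Iglon5, Opcml and Ntm. Lsamp was at 10.18, 10.90 and 10.41 FPKM in the young libraries and at 11.98, 13.89 and 13.11 FPKM in the aged ones. Negr1 was at 3.01 ± 0.444 and 3.96 ± 0.211 FPKM, and Iglon5 at 12.9 ± 1.13 and 15.7 ± 1.17 FPKM (SD, n = 3 each). In these 3 the aged libraries all lay above the young ones, as in 8.98% of all tested genes. The 3 are among the 11 such genes counted for the whole list. Opcml (means of 1.33 and 0.993 FPKM) and Ntm (25.8 and 24.3 FPKM) overlapped. None of the 5 passed (limma adjusted p from 0.151 to 0.758). Dscam, a paralogue of Dscaml1 that was also named after its values were seen, was at 11.8 and 13.2 FPKM, again without overlap (limma adjusted p = 0.408).

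**Figure D3:**
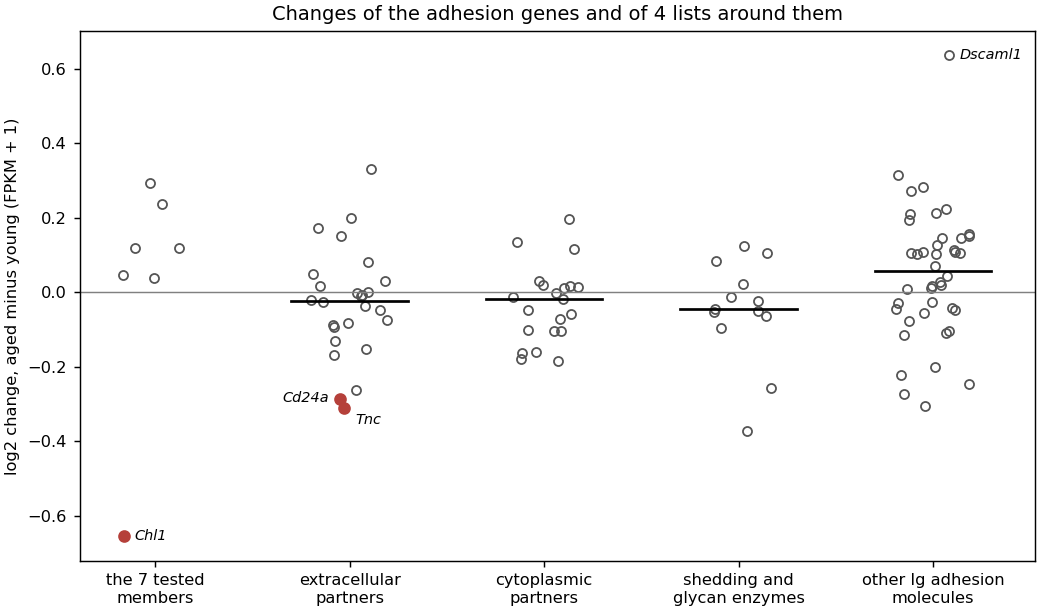
Log2 change of FPKM + 1, aged minus young (y axis), for the 7 tested members and the tested genes of 4 lists (x axis). Filled points passed limma at an adjusted p under 0.05, open points did not, and lines mark list medians. Chl1 lies at -0.66, below Tnc (-0.31) and Cd24a (-0.29), and Dscaml1 at 0.64 is open.

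The genes whose profile over the 6 libraries was nearest to that of Chl1 were Trf, Phykpl, Pcp4l1, Sulf1 and Wdfy1. Nearness was the root mean square distance between log2 values of FPKM + 1 after each gene was centred on its own mean, so genes that are lower in aged libraries by a like amount come first by construction. Trf, which encodes the iron carrier transferrin, had a distance of 0.0447. It was at 79.58, 76.95 and 77.62 FPKM in the young libraries and at 46.26, 50.54 and 48.70 FPKM in the aged ones, and like Chl1 it was highest in young 1 and, among aged libraries, in aged 2. Phykpl, a lyase of hydroxylysine breakdown, had a distance of 0.0737 and Pcp4l1 one of 0.0985. Sulf1, which trims sulfate from heparan sulfate, was at 0.102 and Wdfy1, an endosomal protein, at 0.104. The median distance over all tested genes was 0.346. A flat profile, with no change between libraries, lay at 0.332. All other tested members were farther from Chl1 than that, from Nfasc at 0.354 to Ncam2 at 0.481.

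**Figure D4:**
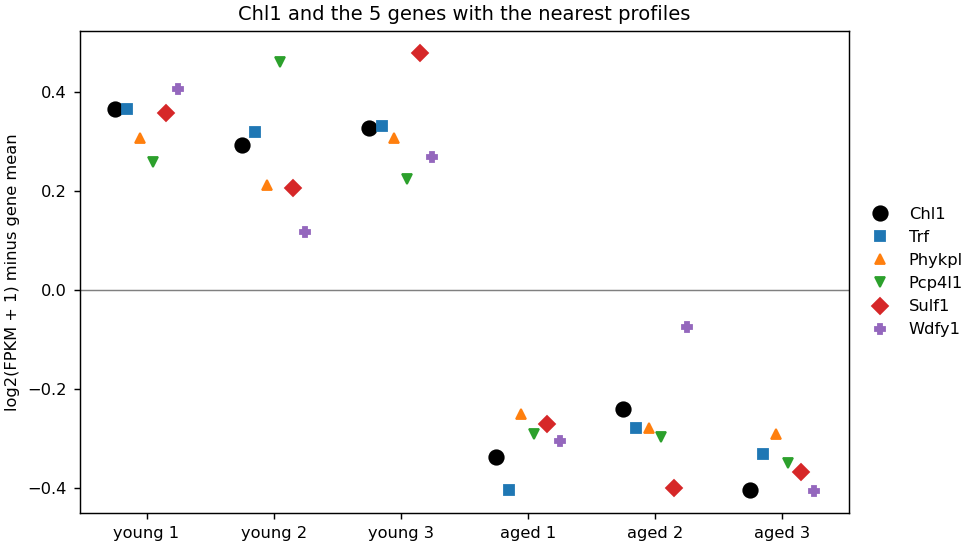
Centred log2(FPKM + 1) values (y axis) of Chl1 (black circles) and the 5 genes nearest to it in the 3 young and 3 aged libraries (x axis; symbols are set side by side within a library). All 6 genes lie above 0 in the young and below 0 in the aged libraries.

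Markers of other cell types were read in the same libraries. Of 10 neuronal and neuroblast markers, 9 were in the tables and 5 had a mean of at least 1 FPKM. Their sum was 152.0 to 156.2 FPKM in the young libraries and 150.8 to 159.1 FPKM in the aged ones, most of it Map2. In aged libraries 3 of these markers were higher and 1 lower without overlap. Of all tested genes 8.98% were higher and 8.58% lower without overlap. These shares cover genes past the filter, whereas the counts here and in the marker lists below also hold weaker genes. Dcx, a neuroblast marker, had means of 0.35 and 0.65 FPKM, the neuronal tubulin Tubb3 9.37 and 12.1 FPKM, and the synaptic Snap25 2.97 and 4.56 FPKM (young and aged), while Map2 was at 129.8 and 124.6 FPKM. Stmn2 was at 0 in every young library and at no more than 0.10 FPKM in aged ones. The 10 oligodendrocyte lineage markers summed to 89.9 to 96.2 FPKM in the young libraries and 102.9 to 107.8 FPKM in the aged ones, most of it Cnp. In aged libraries 5 were higher and 1 lower without overlap. The 5 were Cnp (means of 69.1 and 75.8 FPKM), Cspg4 (13.9 and 18.6 FPKM), Sox10, Gpr17 and Pdgfra. The 1 was the myelin gene Mbp (0.74 and 0.36 FPKM). Mog and Mag stayed at or under 0.22 FPKM. Of 8 astrocyte markers 5 were higher and 2 lower without overlap, and their sum was 677.5 to 692.2 and 688.3 to 693.1 FPKM. Fibroblast and pericyte markers (7 of 8 in the tables) summed to 0.93 to 1.16 FPKM in the young libraries and 3.11 to 4.08 FPKM in the aged ones, with 3 higher and 0 lower without overlap and Pdgfrb at or under 0.03 FPKM. The 3 were collagen genes, Col1a1 (means of 0.42 and 2.46 FPKM), Col1a2 (0.01 and 0.63 FPKM) and Col3a1 (0.02 and 0.13 FPKM). Acta2 was at 0.48 and 0.31 FPKM with overlap, and Dcn and Rgs5 stayed at or under 0.10 FPKM. Endothelial markers (6 of 7 in the tables) summed to 1.55 to 2.82 FPKM (young) and 0.95 to 1.15 FPKM (aged), and microglial markers (4 of 8) to 0.54 to 1.00 and 0.68 to 0.88 FPKM. Ependymal markers (5 of 6) summed to 13.0 to 14.5 and 11.8 to 15.4 FPKM. The part of these cells in the values of the adhesion genes was not tested.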

How the data were processed

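RNA of 6 libraries was depleted of rRNA and sequenced. The authors deposited 1 table per library with an FPKM value for each gene, per the file headers. The submitters' processing notes name TopHat, Cuffdiff and the build mm10. Annotation, strand setting and scaling between libraries are not given in the sources used here. FPKM are not counts, so no count test was used. Low values come in steps of 1 read, and between 3.5 and 10.5 estimated reads 52.2% to 55.3% of values were whole to within 0.15, where chance gives 30%.

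The test was limma 3.58.1 in R 4.3.3 on log2(FPKM + 1), with a variance trend, all 6 libraries and no covariate. It was two-sided and covered genes whose mean reached 1 FPKM, and p was adjusted over all of them (Benjamini-Hochberg, threshold 0.05). On this scale, folds of weakly expressed genes come out too small. The members and lists were chosen with earlier results of these data known. Named genes were the 9 members, called genes and the 4 smallest adjusted p of each partner list, and the 5 genes nearest to Chl1. Others are marked where they appear, and markers and overlapping genes were named beside this rule. Of the 202 listed entries, 191 matched a gene, the nectins by gene identifier, and the others are not analysed here. Alternatives covered pseudocount, filter, scaling, variance model, library weights, a replicate block, a threshold of 0.01 and each library left out. A filter over the remaining 5 libraries was added after seeing the data. Coordinates are from RefSeq, GRCm38.p6, counted from 1. Figures used Python 3.11.15 and matplotlib 3.10.9.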

Additional observations from a re-analysis of the deposited data

How the results depend on the processing

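The count of 86 called genes was 11 without limma's variance trend, 22 with a replicate block and 19 at a threshold of 0.01. It ranged from 39 to 63 with 1 library left out, and from 39 to 70 when the filter was also taken over the remaining libraries. The count of called members, 1 in the reported fit, was 0 with the block, 0 at the threshold of 0.01 and 0 to 1 with 1 library left out, with 0 in the fit without young 1. With the filter over the remaining libraries, Chl1 kept its call without young 1 (limma adjusted p = 0.0486). The log2 change of Chl1 ran from -0.75 with a pseudocount of 0.1 to -0.43 with a pseudocount of 5. No direction of the 7 tested members changed in 160 refits. Of extracellular partners, 3 were called with a filter of 5 FPKM (1 higher, 2 lower), 0 without the trend, 1 with the block and 1 to 2 with 1 library left out. Of cytoplasmic partners, 1 was called with a filter of 5 FPKM, 1 after rescaling to TPM and 1 with a robust prior. Of other immunoglobulin adhesion molecules, 1 was called without the trend and 1 with a robust prior. Ank2 went from 0.013 to -0.0046 after quantile normalization and to -0.00092 after rescaling to TPM. Scalings moved the median log2 change of all genes to between -0.010 and 0.0001. Same-numbered libraries deviated together little (correlations 0.008, -0.072 and 0.108). Young 1 correlated best with aged 2 (0.072), young 2 with aged 1 (0.111) and young 3 with aged 3 (0.108). With 3 libraries per age, these values cannot settle whether the numbers pair the libraries. With the replicate block, Chl1 and Cd24a lost their calls (limma adjusted p = 0.0643 for each). Depth limits L1cam and Cntn2, at under 10 estimated reads a library.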
